A study of Homo sapiens with 96 samples.

Results

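The 3 Period genes, PER1, PER2 and PER3, were followed through 12 times of a circadian day in total RNA and in ribosome footprints, the mRNA fragments that a ribosome shields from nuclease. They were taken by name, as 3 of the 19438 genes in every deposited table, and all 3 had enough reads to be tested in every comparison. The cells were U2-OS, a human osteosarcoma line widely used to study the clock, carrying a luciferase reporter under the Per2 promoter. Knockdown cells, plated at 560000 per plate, were transfected by Lipofectamine RNAiMAX with 5 pooled siRNAs, 120 pmol in all, against Bmal1 (gene symbol ARNTL). Wild-type cells were seeded at 2250000 per plate and received no siRNA; a control siRNA is not named in the labels, so transfection and seeding density cannot be told apart from the loss of Bmal1. Dexamethasone, a synthetic glucocorticoid, set the clocks of both treatments in step at 0.1 µM. Cells were collected every 2 h from 24.5 h after synchronisation, and were treated with cycloheximide at 100 µg/mL to hold ribosomes on the mRNA. Each treatment, assay and circadian time (CT, in h) had 2 replicates, which gives 24 libraries per treatment and assay and 96 in all. The 12 libraries of 1 treatment, assay and replicate number are called a series below.

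The circadian clock is a feedback loop in transcription. BMAL1 and CLOCK bind E-boxes in the promoters of the Period and Cryptochrome genes and switch them on, and the PER and CRY proteins return to the nucleus and hold BMAL1 and CLOCK back. PER2 and PER1 carry most of this repression, PER3 is the less essential member, and casein kinases mark the PER proteins for degradation, which sets the pace of the loop. PER1 and PER2 can also be induced apart from BMAL1, by glucocorticoids and by cAMP signalling, and D-boxes are bound by the activators DBP, TEF and HLF and by the repressor NFIL3.

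The promoters are shown because BMAL1 and the D-box factors are known to act through promoter elements. Not every window held an element of each kind. The sequences are from RefSeq on GRCh38.p14, a later build than the GRCh37 of the counts, and run from 250 bases before the annotated start to 50 bases after it; all 3 genes were matched by symbol. Capitals mark an E-box (CACGTG), an E'-box (CACGTT), a D-box (TTATGTAA or TTACGTAA) or a cAMP response element (TGACGTCA), each searched on both strands.
PER1, chr17:8152355-8152654, minus strand: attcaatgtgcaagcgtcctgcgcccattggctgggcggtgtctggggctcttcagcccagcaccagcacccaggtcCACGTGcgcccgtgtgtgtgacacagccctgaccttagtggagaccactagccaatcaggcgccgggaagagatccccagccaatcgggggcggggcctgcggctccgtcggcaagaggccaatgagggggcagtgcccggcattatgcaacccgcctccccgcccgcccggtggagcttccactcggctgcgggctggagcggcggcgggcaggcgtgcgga
PER2, chr2:238288561-238288860, minus strand: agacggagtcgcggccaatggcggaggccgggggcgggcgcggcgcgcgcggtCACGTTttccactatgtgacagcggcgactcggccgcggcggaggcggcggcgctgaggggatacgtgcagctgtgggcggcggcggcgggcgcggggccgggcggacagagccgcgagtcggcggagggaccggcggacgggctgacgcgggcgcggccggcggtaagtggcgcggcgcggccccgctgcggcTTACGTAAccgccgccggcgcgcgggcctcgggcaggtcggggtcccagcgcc
PER3, chr1:7784041-7784340, plus strand: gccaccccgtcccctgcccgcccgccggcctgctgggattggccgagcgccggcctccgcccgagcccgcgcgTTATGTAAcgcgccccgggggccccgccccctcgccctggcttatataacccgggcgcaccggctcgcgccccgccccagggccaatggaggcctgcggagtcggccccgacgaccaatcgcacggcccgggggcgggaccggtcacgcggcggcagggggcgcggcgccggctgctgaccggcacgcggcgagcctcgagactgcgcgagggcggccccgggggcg
The PER1 window held 1 E-box, whose first base lay at position -173, counted from the start. The PER2 window held 1 E'-box at position -197 and 1 D-box at position -3. The PER3 window held 1 D-box at position -177, and a window from a later PER3 start (chr1:7784179-7784478) held none of the 4 elements. Among all 35116 promoter windows of this length in the table, 7.26% held CACGTG, 5.34% held CACGTT, 1.01% held either D-box and 1.85% held TGACGTCA. These are matches of letters, not measured binding.

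Libraries of total RNA held 13.6 to 20.1 M recovered reads (M, 1e+06) in 46 of 48 cases; the 2 others, replicate 2 of knockdown total RNA at CT14 and at CT18, held 2.66 and 2.56 M and are called the shallow libraries. Footprint libraries held 2.50 to 5.82 M. Levels are counts per M reads (CPM) with TMM scaling. The target of the siRNA, ARNTL, was at 4.84 ± 0.710 CPM (3.36 to 6.49) in knockdown total RNA, against 32.5 ± 11.5 CPM (14.3 to 47.9) in wild-type total RNA (SD, n = 24 each), so every knockdown library lay below every wild-type one. In footprints it was at 0.658 ± 0.426 CPM in knockdown libraries, with 0 to 6 reads each, against 18.7 ± 7.31 CPM in wild-type libraries. Of 10 markers of osteoblasts and mesenchyme, 6 averaged at least 1 CPM in each treatment, SPARC and VIM among them, while SP7, COL1A2, BGLAP and IBSP were at or near 0. The 10 together came to 3451 to 4178 CPM per knockdown library and 2998 to 3455 CPM per wild-type library. Of 3 blood markers, PTPRC and HBB were near 0 in both treatments and CD68 averaged 12.8 CPM in knockdown against 2.09 CPM in wild-type total RNA, so that the 3 summed to 9.84 to 17.6 CPM and 1.57 to 3.38 CPM per library. The 3 epithelial markers summed to 5.08 to 10.8 and 4.60 to 10.3 CPM, and the 3 neuronal markers to 258 to 348 and 293 to 364 CPM, in knockdown and wild-type libraries. The part of these differences in the results on the Period genes was not tested.

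The 3 genes parted ways when Bmal1 was knocked down. PER2 mRNA was higher, PER3 mRNA was lower, and PER1 mRNA had about the same mean level. In bulk RNA, a change in the number of cells that express a gene and a change in the amount per cell cannot be told apart. For PER2, a core repressor of the loop, the 24 knockdown libraries ran from 22.4 to 33.7 CPM with a median of 26.5, and the 24 wild-type libraries from 5.10 to 27.7 CPM with a median of 14.5. Knockdown libraries filled a narrow band that met only the top of the wild-type range: 15 of 24 lay above the highest wild-type time mean, 24.7 CPM at CT8, and the other 9 lay within the range of the time means. For PER3, knockdown libraries ran from 23.7 to 37.1 CPM with a median of 27.8, against 24.2 to 82.9 CPM with a median of 48.6 in wild-type. Here the knockdown band sat at the bottom, with 13 of 24 libraries below the lowest wild-type time mean, 28.1 CPM at CT0, and the other 11 within. For PER1, a known target of glucocorticoids, knockdown libraries ran from 32.0 to 68.0 CPM with a median of 35.5, and wild-type libraries from 29.9 to 47.6 CPM with a median of 36.4. These groups overlapped almost whole; the 2 knockdown values above all wild-type ones, both 68.0 CPM, were the 2 shallow libraries.

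**Figure D1:**
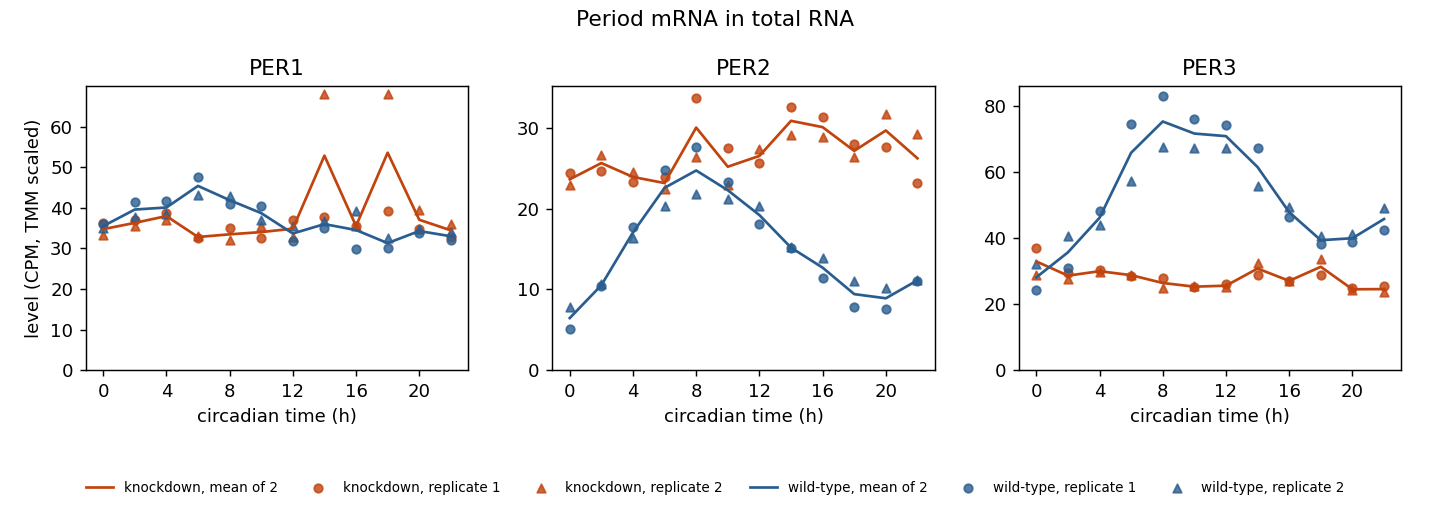
Total RNA level (CPM, linear axis from 0) of PER1, PER2 and PER3 against circadian time in h, for knockdown (orange) and wild-type (blue). Circles and triangles are replicates 1 and 2 and lines join their means; PER2 in knockdown stays near its wild-type maximum, PER3 in knockdown near its wild-type minimum, and the 2 high PER1 triangles at 68.0 CPM are the shallow knockdown libraries at CT14 and CT18.

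Averaged over the day, PER2 mRNA rose 1.92-fold with knockdown (log2 0.94 ± 0.05 SE, 95% confidence interval 0.84 to 1.04, limma adjusted p = 5.5e-18) and was higher in the time means at 12 of 12 times. PER3 mRNA fell to 0.560 of wild-type (log2 -0.84 ± 0.04, interval -0.92 to -0.76, adjusted p = 4.9e-19) and was lower at 11 of 12 times. PER1 mRNA had a log2 difference of 0.02 ± 0.05 (interval -0.08 to 0.13, adjusted p = 0.68), higher at 6 times and lower at 6. Thus 2 of the 3 members passed, 1 in each direction, beside 81.7% of the 13188 genes tested (41.8% higher and 39.9% lower). The libraries of a wild-type series deviated together, so a more cautious test took each series as 1 value, 2 against 2: limma adjusted p was then 0.00016 for PER2, 0.00011 for PER3 and 0.77 for PER1, with 58.6% of genes called. The PER1 mean depended on the shallow libraries. Without them its log2 difference was -0.05 (adjusted p = 0.15), without knockdown replicate 1 it was 0.09 (0.037) and without knockdown replicate 2 it was -0.04 (0.31). In the shallow libraries PER1 was 1.80-fold (CT14) and 1.73-fold (CT18) the replicate 1 value, and 2.04% of genes were at least as high in both; PER2 stood at 0.895-fold and 0.942-fold and PER3 at 1.12-fold and 1.16-fold.

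The balance between PER2 and PER3 shifted toward PER2. The log2 ratio of PER2 reads to PER3 reads, which is not corrected for the lengths of the 2 mRNAs, averaged -0.06 and -0.05 in the 2 knockdown total RNA series, against -1.88 and -1.78 in the wild-type ones. In footprints it averaged 0.49 and 0.48 in the knockdown series and -1.998 and -1.75 in the wild-type ones. The series of the 2 treatments did not overlap in either assay.

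Footprints moved in the same directions for PER2 and PER3, and PER1 footprints fell. PER2 footprints ran from 19.4 to 40.0 CPM with a median of 27.3 in knockdown libraries, and from 2.81 to 30.4 CPM with a median of 13.6 in wild-type libraries. Of the knockdown libraries, 20 of 24 lay above the highest wild-type time mean, 24.96 CPM at CT6. PER3 footprints ran from 14.4 to 26.2 CPM with a median of 20.0 in knockdown, against 23.5 to 97.2 CPM with a median of 49.1 in wild-type. All 24 knockdown libraries lay below the lowest wild-type time mean, 28.2 CPM at CT0, and the treatments overlapped only between 23.5 and 26.2 CPM. PER1 footprints ran from 78.6 to 113.1 CPM with a median of 100.9 in knockdown, against 92.7 to 146.1 CPM with a median of 113.7 in wild-type. The PER1 groups overlapped widely, with 12 of 24 knockdown libraries below the lowest wild-type time mean and 12 within the range. PER2 rested on few footprints, 52 to 144 reads per knockdown library and 14 to 142 per wild-type library. PER3 had still fewer in knockdown, 45 to 95 reads per library, and 96 to 442 per wild-type library. Such counts bound the precision of a single value.

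**Figure D2:**
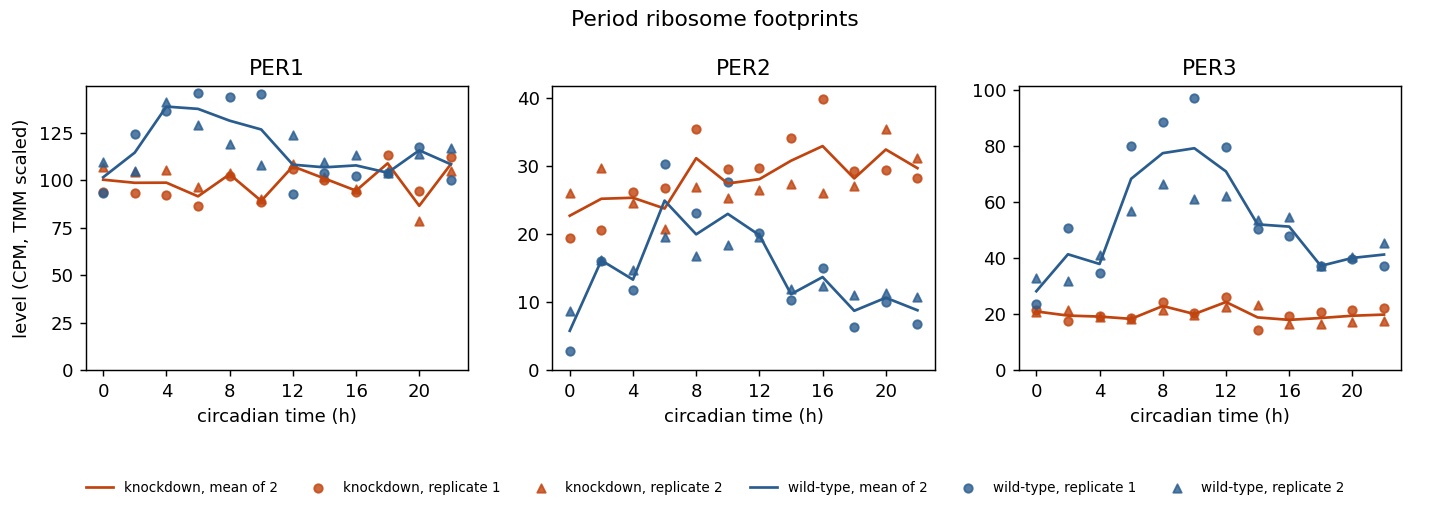
Footprint level (CPM, linear axis from 0) of the 3 genes against circadian time in h, knockdown in orange and wild-type in blue, circles and triangles for replicates 1 and 2, lines for their means. PER3 in knockdown lies below every wild-type time mean, and PER1 in wild-type rises above knockdown between CT4 and CT10.

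PER2 footprints rose 2.09-fold (log2 1.06 ± 0.09 SE, interval 0.87 to 1.25, limma adjusted p = 1.0e-12; series as units, 8.4e-05). PER3 footprints fell to 0.407 of wild-type (log2 -1.30 ± 0.06, interval -1.43 to -1.17, adjusted p = 4.2e-21; series as units, 2.6e-05). PER1 footprints fell to 0.853 (log2 -0.23 ± 0.04, interval -0.31 to -0.15, limma adjusted p = 1.0e-06, and 0.0061 with series as units). With the deposited scaling the PER1 difference was -0.13 (limma adjusted p = 0.0019). The median over all genes was then 0.09, against -0.01 with TMM scaling. All 3 members were called, beside 75.5% of 11189 genes (37.4% higher, 38.1% lower; 59.1% in all with series as units). Time means were higher in knockdown at 11 of 12 times for PER2, and lower at 12 of 12 for PER3 and at 10 of 12 for PER1.

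The size of the knockdown effect changed through the day, since the wild-type level moved and the knockdown level hardly did. PER2 mRNA was furthest above wild-type at CT0, where both knockdown libraries (24.4 and 22.9 CPM) stood far above both wild-type libraries (5.10 and 7.80 CPM; log2 1.86 ± 0.17, limma adjusted p = 1.5e-10). At CT6, where wild-type PER2 was near its height, knockdown had 23.9 and 22.4 CPM and wild-type 24.8 and 20.3 CPM (log2 0.04 ± 0.17, adjusted p = 0.86). PER2 passed as higher at 9 of 12 times, all but CT6, CT8 and CT10. PER3 had the opposite calendar. At CT0 its mRNA was at 37.1 and 28.7 CPM in knockdown and 24.2 and 32.0 CPM in wild-type (log2 0.23 ± 0.14, adjusted p = 0.18), and at CT8 at 27.9 and 24.8 CPM in knockdown and 82.9 and 67.5 CPM in wild-type (log2 -1.499 ± 0.14, adjusted p = 2.0e-10). It passed as lower at 10 of 12 times, all but CT0 and CT2. Over all genes, 44.3% of the gene and time pairs passed in total RNA, 22.4% as higher and 21.9% as lower.

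PER1 mRNA passed at 3 times: lower at CT6 (log2 -0.46, limma adjusted p = 0.035), and higher at CT14 (0.49, 0.026) and CT18 (0.72, 0.0015). Without the shallow libraries only replicate 1 of knockdown was left at CT14 and CT18, and the differences were 0.06 at CT14 and 0.32 at CT18. In that fit CT6 (limma adjusted p = 2.1e-04) and CT8 (-0.32, 0.0065) passed as lower. PER1 footprints, which have no shallow libraries, passed as lower at CT4, CT6, CT8, CT10 and CT20, most at CT6 (-0.59 ± 0.13, adjusted p = 0.00064), and were at -0.08 at CT14 and 0.07 at CT18. PER2 footprints passed as higher at 7 times, with the largest difference at CT0 (2.11 ± 0.32, 3.3e-06) and -0.05 ± 0.32 at CT6. At CT0 the wild-type PER2 footprint libraries held 2.81 and 8.76 CPM (14 and 31 reads). Their gap of 1.56 log2 units was the widest between replicates for PER2 in wild-type footprints. PER3 footprints passed as lower at 11 times, all but CT0 (-0.40 ± 0.22, 0.18), with the largest difference at CT10 (-1.93 ± 0.22, 9.3e-09). In footprints 30.3% of gene and time pairs passed, 14.9% as higher and 15.4% as lower.

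**Figure D3:**
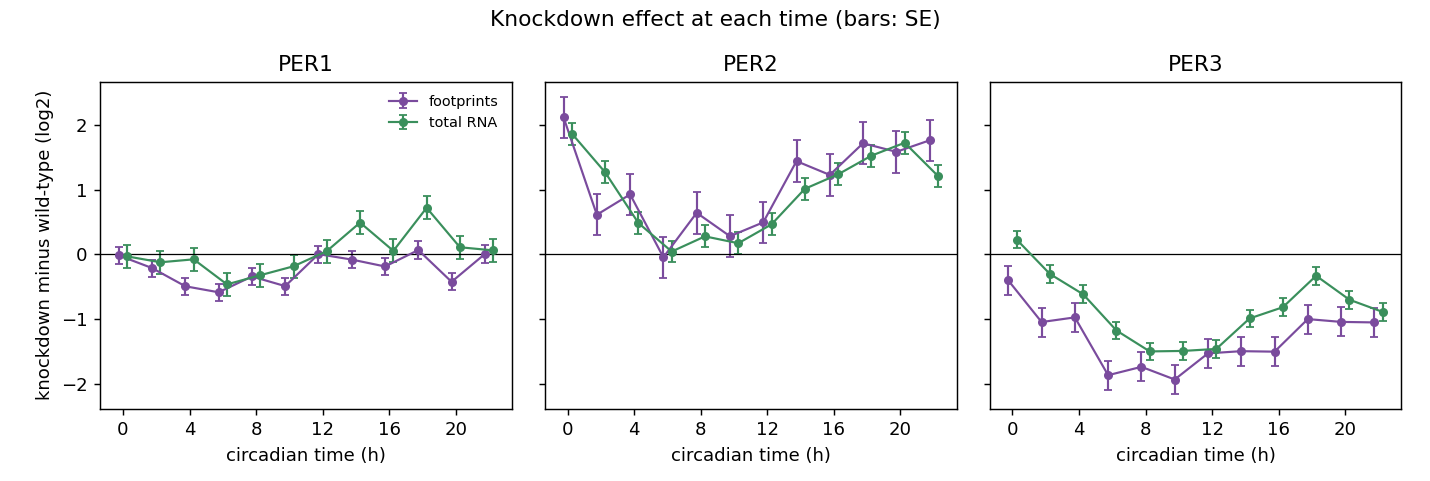
Knockdown minus wild-type on the log2 scale at each circadian time, with SE from the fit, for footprints (purple) and total RNA (green); the line at 0 is no difference. PER2 lies furthest above 0 at CT0 and near 0 at CT6, PER3 lies below 0 most from CT6 to CT12, and the PER1 total RNA points at CT14 and CT18 include the shallow libraries.

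In wild-type cells all 3 mRNAs cycled, in the order PER1, PER2, PER3. A cosine of 24 h gave PER2 the widest swing, with an amplitude (mean to peak) of 0.77 ± 0.08 log2 units, a peak at CT 9.16 ± 0.386 h and a fitted peak 2.89-fold above the trough (limma adjusted p = 5.2e-06). PER3 had an amplitude of 0.56 ± 0.07, peaked at CT 10.4 ± 0.443 h and was 2.17-fold above its trough (3.6e-05). PER1 had a shallow wave of 0.19 ± 0.03, a peak at CT 6.11 ± 0.597 h and a 1.31-fold range (0.00043). In time means, PER2 had 6.45 CPM at CT0 and 24.7 CPM at CT8, PER3 28.1 CPM at CT0 and 75.2 CPM at CT8, and PER1 45.4 CPM at CT6 and 31.3 CPM at CT18. So 3 of 3 members passed, beside 23.1% of 12682 genes. With the replicate number as a block, which pairs the samples of a wild-type series, the members still passed and the share of all genes was 38.9%.

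The order was set by differences of peak time within the same libraries. PER2 peaked 3.05 h after PER1 (95% interval 1.66 to 4.43) and PER3 1.21 h after PER2 (0.577 to 1.84) in total RNA. In footprints the gaps were 2.64 h (0.528 to 4.76) and 1.27 h (0.0459 to 2.49). These intervals take the 24 libraries as independent and come from a fit with no block and no drift. Within 1 day a wave and a steady trend are hard to tell apart. With a linear drift in the fit, PER2 had an amplitude of 1.00 with a peak at CT 7.84 (adjusted p = 8.0e-11) and PER3 0.69 with a peak at CT 8.54 (7.5e-10), in a fit that called 0.189% of genes. PER1 then had 0.20 with a peak at CT 6.07 and did not pass (0.21), but passed with block and drift together (0.023, where 1.04% of genes did). With the drift the 3 peaks kept their order but lay closer together, and no interval was computed for those gaps.

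Wild-type footprints carried the same waves. PER2 footprints had an amplitude of 0.74 ± 0.13 with a peak at CT 8.97 ± 0.686 h (limma adjusted p = 0.0031), PER3 0.58 ± 0.08 at CT 10.2 ± 0.517 h (0.00020) and PER1 0.17 ± 0.04 at CT 6.32 ± 0.969 h (0.031). All 3 passed, beside 6.97% of 10736 genes (12.6% with the block). The PER1 call was lost without replicate 1 (amplitude 0.092, adjusted p = 0.47) and without replicate 2 (0.25, 0.096). With a drift PER2 (0.95, adjusted p = 0.010) and PER3 (0.69, 2.0e-05) still passed and PER1 (0.27, 0.41) did not, where 0.0652% of genes passed. Each series alone gave a smaller wave in replicate 2 than in replicate 1. PER2 amplitude was 1.05 and 0.44 in footprints and 0.92 and 0.62 in total RNA, for replicates 1 and 2, and PER3 amplitude was 0.74 and 0.43 in footprints and 0.71 and 0.41 in total RNA. Peaks differed less, at CT 8.87 and CT 9.59 for PER2 and CT 10.3 and CT 10.5 for PER3 in total RNA.

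Footprints followed the mRNA within the error of the fit. Footprint minus total RNA amplitude was -0.02 for PER2 (95% interval -0.26 to 0.22), 0.02 for PER3 (-0.13 to 0.17) and -0.02 for PER1 (-0.11 to 0.06). Footprint minus total RNA peak time was -0.189 h for PER2 (interval -1.43 to 1.05), -0.131 h for PER3 (-1.12 to 0.858) and 0.213 h for PER1 (-1.63 to 2.05). These intervals leave room for a lag of about 1 h for PER2 and PER3 either way. None of the 3 passed a test for a 24 h wave in the ratio of footprints to mRNA in knockdown cells (limma adjusted p of 0.89 or more, unadjusted 0.22 or more) or in wild-type cells (adjusted p of 1.0, unadjusted 0.91 or more), where 0.00942% and 0.0281% of genes passed.

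In knockdown cells the waves were flat or close to it. PER3 had an amplitude of 0.04 ± 0.04 in total RNA (limma adjusted p = 0.72) and 0.07 ± 0.06 in footprints (0.69). The PER3 total RNA amplitude was 0.086 without the shallow libraries (limma adjusted p = 0.18). Over 12 alternatives it ran from 0.024 to 0.157, and none called it. PER1 had 0.16 ± 0.07 in total RNA (0.18), 0.03 in replicate 1 alone, which holds no shallow library, and 0.02 ± 0.04 in footprints (0.89). PER2 alone passed, in total RNA, with an amplitude of 0.14 ± 0.04 and a peak at CT 15.5 ± 1.10 h (0.025), beside 33.7% of 12765 genes. That call was lost with a drift (0.40), without replicate 1 (0.14) and without replicate 2 (0.065), and PER2 footprints, at 0.17 ± 0.06 with a peak at CT 15.5 ± 1.32 h, did not pass (0.093), where 18.5% of genes did. Knockdown time means of PER2 mRNA ran from 23.2 CPM at CT6 to 30.9 CPM at CT14, a range of 1.33-fold, against 3.83-fold in wild-type; those of PER3 ran from 24.4 CPM at CT20 to 32.9 CPM at CT0, 1.34-fold, against 2.68-fold.

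The test of the change itself, which compares both terms of the wave between treatments, gave in total RNA 0.79 ± 0.09 for PER2 (limma adjusted p = 3.2e-07), 0.59 ± 0.08 for PER3 (1.4e-05) and 0.35 ± 0.08 for PER1 (0.0071), as the amplitude of the difference between the 2 waves. All 3 members passed, beside 10.9% of 13188 genes (18.5% with a block per series). In footprints the difference was 0.79 ± 0.15 for PER2 (0.0057), 0.52 ± 0.10 for PER3 (0.0032) and 0.19 ± 0.06 for PER1 (0.096), and 2 of 3 passed beside 3.85% of genes (6.55% with a block per series). The PER1 change in total RNA was lost with a drift (limma adjusted p = 0.22) and without replicate 1 (0.16). Its size ran from 0.24 to 0.43 over the alternatives. The knockdown PER1 wave that enters this difference had an amplitude of 0.164, and of 0.048 without the shallow libraries. In footprints the call was lost for PER2 without replicate 2 (adjusted p = 0.12) and for PER3 without replicate 1 (0.20).

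**Figure D4:**
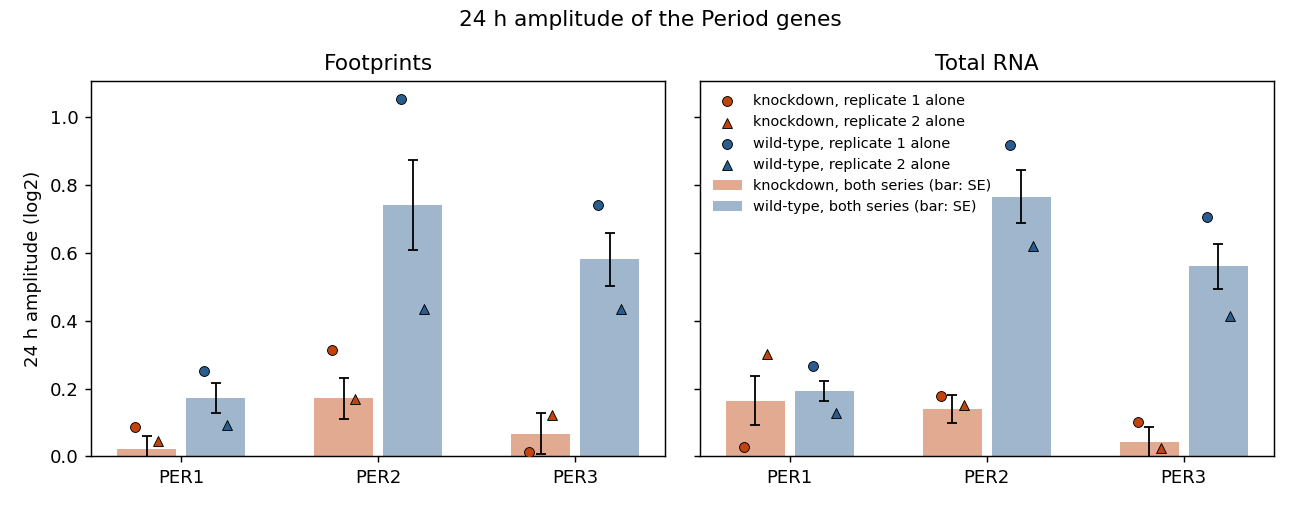
Amplitude of the 24 h wave (log2 units, mean to peak; axis from 0) in footprints and in total RNA, knockdown in orange left of wild-type in blue. Columns are fits of both series with SE, circles and triangles the fits of replicate 1 and replicate 2 alone; for PER2 and PER3 each wild-type series lies above each knockdown series.

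Footprints per mRNA (translational efficiency, the log2 ratio of footprint CPM to total RNA CPM) moved for 2 of the 3 genes. PER3 lost more footprints than mRNA: its ratio ran from -1.02 to 0.01 with a median of -0.47 in the 24 knockdown pairs and from -0.46 to 0.72 with a median of -0.03 in the 24 wild-type pairs, the pairs taken by time and replicate number. The clouds overlapped, with a knockdown minus wild-type difference of -0.46 ± 0.08 (interval -0.62 to -0.30, limma adjusted p = 4.9e-06), that is 0.727-fold. Both knockdown series (-0.47 and -0.50) lay below both wild-type series (0.03 and -0.07), and with series as units the adjusted p was 0.020. The PER1 ratio ran from 0.58 to 1.76 with a median of 1.44 in knockdown and from 1.37 to 1.86 with a median of 1.64 in wild-type. Its difference was -0.25 ± 0.06 (interval -0.38 to -0.12, adjusted p = 0.0017), and -0.18 (0.0030) without the shallow libraries, which hold the 2 lowest ratios. It was not called with series as units (0.075) or with the deposited scaling (-0.15, 0.054). The PER2 ratio ran from -0.32 to 0.35 with a median of 0.08 in knockdown and from -0.80 to 0.62 with a median of -0.06 in wild-type, a difference of 0.12 ± 0.11 (interval -0.10 to 0.34, adjusted p = 0.42). The 2 calls among 3 members stand beside 31.1% of 11149 genes, and the 1 call beside 7.88% with series as units.

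**Figure D5:**
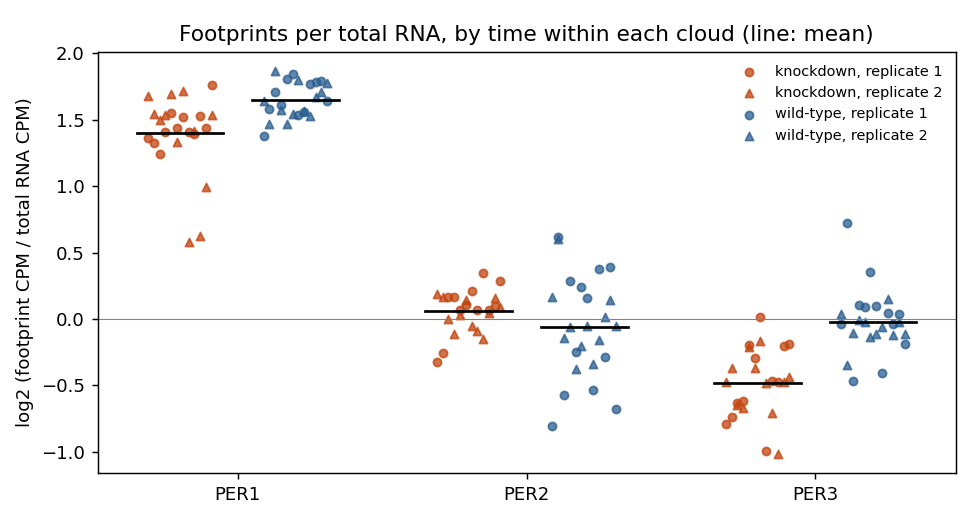
Log2 ratio of footprint CPM to total RNA CPM for each time and replicate, knockdown in orange left of wild-type in blue, with CT0 to CT22 running left to right within each cloud and a line at the mean. PER3 sits lower in knockdown (median -0.47 against -0.03 in wild-type), and 2 low PER1 triangles at CT14 and CT18 are the shallow total RNA libraries.

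Among 11921 genes, the patterns most like each member over the 12 time means of wild-type total RNA were found by Pearson correlation, given as a description with n = 12 times that share their 24 libraries. PER2 was most like CRY2, a cryptochrome and partner of the PER proteins (r = 0.980), then AL157440 (0.974), ODF2 (0.946), PER3 (0.940) and NCAPD2 (0.935). PER3 was most like IFIT1, an interferon-induced gene (0.973), then SNX27 (0.962), PER2 (0.940), NMU (0.934) and ODF2 (0.933). PER1 stood apart from both, with r = 0.614 to PER2 and 0.382 to PER3, and was most like HSPA1B, a heat shock protein whose near-identical copy HSPA1A makes its count uncertain (0.952), OIP5 (0.947), LRRC8E (0.932), CDC20 (0.931), an activator of the anaphase-promoting complex, and GTSE1 (0.922). In knockdown total RNA PER2 and PER3 had r = -0.278 over 12 times and -0.603 over the 10 times without CT14 and CT18. The knockdown genes most like PER2 were ZNF787 (0.933), EPHA2 (0.932), CSRNP1 (0.931), NCDN (0.931) and FAM83G (0.923), and those most like PER3 were ANKRD18A (0.939), XPO7 (0.930), NID1 (0.916), CASP2 (0.914) and SLC6A9 (0.906). Of those most like PER1, FOXP4, GATAD2B, CNOT3 and RBPMS2 had r of 0.973 to 0.979 over 12 times and 0.663 to 0.722 over the 10 times left without CT14 and CT18.

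The genes around the Period proteins in the clock were counted from 4 lists, to be read against the 81.7% of all genes called in total RNA, the 23.1% rhythmic in wild-type total RNA and the 10.9% with a changed rhythm. In footprints the shares were 75.5% called (37.4% higher, 38.1% lower) and 6.97% rhythmic in wild-type. Of 14 partners in the repressor complex, 3 rose and 9 fell in total RNA (median log2 -0.17, against 0.01 over all genes), from CRY2 (1.19 ± 0.03, limma adjusted p = 7.0e-25) to the siRNA target ARNTL (-2.60 ± 0.05, 7.7e-29). In footprints 2 rose and 8 fell, CRY2 at 1.59. Of 13 kinases, phosphatases and ubiquitin ligases that act on PER proteins, 4 rose and 4 fell in total RNA, with a median of -0.03; BTRC, a ligase subunit that recognises phosphorylated PER, rose by 0.57 ± 0.03 (1.3e-18) and PPP1CB, a phosphatase subunit, fell by 0.71 on the log2 scale (SE 0.04, 3.7e-17). In footprints 4 rose and 5 fell. Of these 13 genes 2 had a 24 h rhythm in wild-type total RNA, the wider being CSNK1A1 with an amplitude of 0.06.

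Of 11 other clock genes driven through E-boxes or D-boxes, 9 were tested; 4 rose and 4 fell in total RNA (3 and 4 in footprints), from CRY2 at 1.19 to NR1D2, the REV-ERB beta repressor, at -2.85 ± 0.03 (limma adjusted p = 1.8e-36). Of the 9, 7 were rhythmic in wild-type total RNA and 6 in wild-type footprints, and the rhythm changed with knockdown in 7, the widest change being 0.96 for NR1D1. The median amplitude of the 9 in wild-type total RNA was 0.41, against 0.07 over all genes. Of 11 genes inducible by glucocorticoids or cAMP, signals that can also induce PER1, 10 were tested. In total RNA 3 rose and 6 fell (median -0.46). They ran from CREM, a cAMP-responsive regulator (0.60 ± 0.04, limma adjusted p = 1.6e-16), to ZBTB16, a glucocorticoid-induced gene (-1.97 ± 0.14, 2.3e-14). In footprints 2 of 9 rose and 5 fell. Of the 10, 6 were rhythmic in wild-type total RNA, and 1 of 9 was in wild-type footprints. The rhythm change in total RNA passed in 1 of the 10, FOS. CRY2 sits in 2 of the 4 lists and CRY1 with it.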

How the data were processed

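The submitters' processing notes name STAR 2.3.0e, HTSeq 0.5.4p1, DESeq2 (no version) and the build GRCh37 (hg19). Whether counting used strand is not given in the sources used here, so reads of an antisense gene could not be told apart. The deposited values are a signal: per-gene counts scaled by the authors with a single factor in each library. All of them (100% of 1866048 values) came out as whole reads, within 0.001 read, once divided by the smallest positive value of their column. Columns are named by time alone; treatment, assay and replicate come from the table they sit in. The main test was limma-trend (limma 3.58.1, R 4.3.3, robust empirical Bayes) on log2 (CPM + 0.25), with TMM scaling per assay from edgeR 4.0.16, a filterByExpr minimum count of 10, fitted on all genes with Benjamini-Hochberg adjustment at 0.05; tests per time were adjusted over genes and 12 times. Adjusted p-values are limma's where no other tool is given. The knockdown effect is the mean over 12 times, efficiency its difference between assays, and rhythms are F tests of both terms of a 24 h cosine wave. The intervals for peak and amplitude differences came from a joint least-squares fit. Alternatives were edgeR quasi-likelihood, DESeq2 1.42.0, median-ratio and the deposited scaling, no filter, a pseudocount of 1, a replicate block, a drift, series as units and libraries left out. In simulated counts the test called 88.0% of genes with a log2 change of 0.25 in total RNA and 76.0% in footprints. Those counts were drawn independently for each library, with few genes changed and no deviation shared within a series. They therefore do not give the power of the test in these data. The libraries of a wild-type total RNA series deviated together in 66 of 66 pairs of times (r of 0.438 to 0.782), so the replicate number pairs samples there. The labels do not say whether replicates came from separate cultures, so the p-values cover only how far these samples differ, possibly for technical reasons. The members, the 4 lists and the naming rule (members, the siRNA target, the largest rise and fall of each list, the 5 genes most alike in pattern) were chosen with earlier results of these data known. One gene that this rule names is not reported here.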

Additional observations from a re-analysis of the deposited data

Results flagged for a closer look

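The 24 h wave differed between knockdown and wild-type cells by a test of the difference itself for all 3 Period genes in total RNA, by 0.35 for PER1, 0.79 for PER2 and 0.59 for PER3 on the log2 scale, and for PER2 (0.79) and PER3 (0.52) in footprints. In total RNA the call held in 10 of 13 alternatives for PER1 and in 13 of 13 for PER2 and for PER3. In footprints it held in 11 of 12 for PER2 and for PER3. The knockdown PER1 wave in total RNA was 0.164, and 0.048 without the 2 shallow libraries. The knockdown effect differed between footprints and total RNA, also by its own test, by -0.25 for PER1 and by -0.46 for PER3. For PER1 this call held in 12 of 14 alternatives, and the difference was -0.18 without the shallow libraries. For PER3 it held in 14 of 14.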

How the results depend on the processing

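Of 396 alternative values for 33 results on the Period genes, 374 kept direction and call, and 23 results did so under every alternative. An amplitude is never negative, so for waves only the call could change. A result that was not called counted as kept while it stayed so. The knockdown PER1 wave in total RNA was kept in 12 of 12 alternatives while its amplitude ran from 0.028 to 0.302. PER1 total RNA reversed to -0.045 without the 2 shallow libraries, and ran from -0.042 to 0.089 with a knockdown replicate left out. PER1 efficiency weakened to -0.15 with the deposited scaling and was -0.25 with series as units, no longer called. PER1 times called higher in total RNA numbered 1 with edgeR and, chosen after seeing the data, 1 without the shallow libraries, with 2 lower. That 1 higher time was CT18, where only replicate 1 of knockdown was left. PER1 footprint times called lower numbered 3 with the deposited scaling. With a linear drift the rhythm call was lost for knockdown PER2 total RNA (0.11, also with block and drift 0.11), wild-type PER1 footprints (0.27, also with block and drift 0.27) and wild-type PER1 total RNA (0.20), and the rhythm change of PER1 total RNA (0.43, also 0.43 with block and drift). Wild-type PER1 footprints also lost it with no filter (0.17), and the rhythm change of PER1 footprints passed with DESeq2 (0.21). With a replicate left out, amplitudes ran from 0.17 to 0.31 for knockdown PER2 footprints, 0.15 to 0.18 for knockdown PER2 total RNA and 0.092 to 0.25 for wild-type PER1 footprints, and rhythm changes from 0.29 to 0.41 for PER1 total RNA, 0.60 to 0.97 for PER2 footprints and 0.35 to 0.73 for PER3 footprints. Knockdown PER2 total RNA and wild-type PER1 footprints lost their rhythm call without either replicate, and knockdown PER2 footprints gained one without replicate 2 (adjusted p = 0.030). The rhythm change was lost without replicate 1 for PER1 total RNA (0.16) and PER3 footprints (0.20) and without replicate 2 for PER2 footprints (0.12).

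Counts over all genes moved as well. With a linear drift, and with block and drift (added after seeing the data), rhythmic genes numbered 589 and 625 (4308 without either) in knockdown total RNA, 24 and 132 (2935) in wild-type total RNA, 261 and 258 (1965) in knockdown footprints and 7 and 14 (748) in wild-type footprints; rhythm changes numbered 154 and 320 (1433) in total RNA and 68 and 120 (431) in footprints. The replicate block alone gave 4935 in wild-type total RNA and 1348 in wild-type footprints, and changed no call of a Period gene; a block within each series gave 2436 and 733 rhythm changes in total RNA and footprints. Rhythms of efficiency numbered 1 in knockdown (DESeq2 4, without the shallow libraries 3, block and drift 0) and 3 in wild-type (DESeq2 48, deposited scaling 15, drift 0, block 14, block and drift 0, block within each series 51). Efficiency changes numbered 878 with series as units and 3465 with libraries as units. With a replicate left out the counts ran from 474 to 804 for knockdown footprints, 1215 to 1981 for knockdown total RNA, 135 to 497 for wild-type footprints, 1605 to 2887 for wild-type total RNA, 0 to 0 and 0 to 20 for efficiency rhythms in knockdown and wild-type cells, 1994 to 3552 for efficiency changes, and 411 to 925 and 86 to 134 for rhythm changes in total RNA and footprints. The cause was not tested. The DESeq2 adjusted p for efficiency rhythms of the members was not given by the tool, and levels per coding length were not run. Depth limits PER2 footprints most in wild-type, at 14 reads in the lowest library, and PER3 footprints most in knockdown, at 45 reads in the lowest library.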
